A study of Mus musculus with 8 samples.

Results

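Of the 4324 nuclear SMAD4 peaks called in BMP9/10-stimulated MS1 cells, 513 were distal intergenic and overlapped no peak called in unstimulated cells. A peak was taken when it shared not 1 bp with any peak of the unstimulated list and its summit lay outside every protein-coding gene body, more than 20 kb and at most 100 kb from the nearest one (RefSeq, GRCm38.p6, the assembly behind mm10). The members were chosen by the peak calls themselves, so their pileup, fold enrichment, width and q values are given as a description with no test. SMAD4 ChIP-seq was done in MS1, an established mouse endothelial line from pancreatic islet. All cells were starved of serum for 24 h, and the stimulated ones then received recombinant BMP9/10 at 1 ng/mL while the unstimulated ones received fresh medium. The sources used here give no duration of the stimulation. There were 8 libraries in 4 groups of 2, namely SMAD4 immunoprecipitates (IP) and input DNA from each condition. Both stimulated IP libraries have KD in their titles, with no explanation in any label, so what follows describes libraries that are labelled as SMAD4-bound DNA of stimulated cells. The authors merged the 2 IP libraries of each condition before calling peaks, so no peak has a replicate error and every interval below covers counting error only.

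BMP9 and BMP10 are circulating ligands that act on endothelium through the receptor ALK1, which phosphorylates receptor-activated SMADs. These enter the nucleus with their common partner SMAD4 and bind short DNA elements, among them the SMAD box and GC-rich sites, together with other transcription factors. Regulatory elements of endothelial genes often lie far outside the gene they act on, which is why binding away from gene bodies is of interest, although a peak's nearest gene need not be its target.

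Sequence could be shown for the members that overlap a RefSeq promoter window, the 300 bases from 250 before to 50 after an annotated start. Since all members lie over 20 kb from protein-coding genes, these starts belong to long non-coding RNAs (lncRNAs). Such windows were met by 13 of the 494 members on chromosomes that the window table covers (2.63%), and the summit itself lay inside a window in 9. Windows of lncRNAs were met by 2.38%, 3.59% and 1.03% of stimulated-only peaks in gene bodies, flanks and deserts. For shared distal peaks the share was 6%, so such overlap is not particular to the members. The stretch of each window that the peak covers is printed below for the 3 of highest fold enrichment and for the 5 whose covered stretch holds a SMAD box. Letters are the plus strand of GRCm38.p6 from RefSeq, and capitals mark the SMAD box, GTCTG or its reverse complement CAGAC.
Peak at Snhg5, nearest to Zfp949, chr9:88523071-88523147: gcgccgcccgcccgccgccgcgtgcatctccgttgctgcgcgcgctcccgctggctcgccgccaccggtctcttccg
Peak at Gm16619, nearest to Ift57, chr16:49800390-49800578: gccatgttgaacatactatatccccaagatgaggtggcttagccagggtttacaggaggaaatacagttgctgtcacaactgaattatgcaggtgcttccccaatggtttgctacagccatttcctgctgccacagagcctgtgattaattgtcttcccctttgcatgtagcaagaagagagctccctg
Peak at 3930402G23Rik, nearest to Irs2, chr8:10928408-10928508: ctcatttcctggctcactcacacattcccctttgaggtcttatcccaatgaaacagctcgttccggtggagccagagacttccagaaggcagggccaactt
Peak at Gm36495, nearest to E2f6, chr12:16850886-16851185: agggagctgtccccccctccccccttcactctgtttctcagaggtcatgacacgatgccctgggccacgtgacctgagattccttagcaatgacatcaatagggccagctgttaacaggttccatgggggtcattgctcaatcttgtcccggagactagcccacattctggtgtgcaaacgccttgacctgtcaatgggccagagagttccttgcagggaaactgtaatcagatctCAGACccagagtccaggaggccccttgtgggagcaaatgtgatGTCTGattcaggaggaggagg
Peak at Gm52922, nearest to Emp1, chr6:135341150-135341387: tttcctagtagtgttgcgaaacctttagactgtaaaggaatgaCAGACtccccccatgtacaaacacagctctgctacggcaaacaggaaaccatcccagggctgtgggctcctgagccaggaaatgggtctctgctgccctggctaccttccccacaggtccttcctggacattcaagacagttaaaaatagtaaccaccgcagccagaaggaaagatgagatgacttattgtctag
Peak at Gm32287, nearest to Cebpb, chr2:167777490-167777624: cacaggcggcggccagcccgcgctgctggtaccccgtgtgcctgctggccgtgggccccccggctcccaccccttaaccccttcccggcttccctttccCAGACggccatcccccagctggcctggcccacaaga
Peak at Lexis1, nearest to Abca1, chr4:53218849-53218931: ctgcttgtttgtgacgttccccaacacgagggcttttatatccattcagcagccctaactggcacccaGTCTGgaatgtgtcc
Peak at Gm19705, nearest to Zfp281, chr1:136683248-136683361: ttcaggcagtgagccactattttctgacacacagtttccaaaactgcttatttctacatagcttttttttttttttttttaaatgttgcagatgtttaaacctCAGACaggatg

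The stretch at Snhg5, the host gene of small nucleolar RNAs, was the most GC-rich of these, with 80.5% G and C, and its fold enrichment was 6.59 (4.46 to 9.42). Fold enrichment here is the authors' ratio of the IP pileup at the summit to the local input background, 1 added to each, and the bracketed range carries the exact 95% Poisson interval of the pileup with the background held fixed. The peaks at Gm16619 and 3930402G23Rik both stood at 5.56 (4.14 to 7.31 and 3.64 to 8.16), and neither covered stretch held a SMAD box. The summit at Gm16619 lay 16 bp from the annotated start and that at 3930402G23Rik 27 bp. The 2 SMAD boxes under the peak at Gm36495 lay 63 and 106 bp from its summit, and its fold enrichment was 4.31 (2.89 to 6.20). The box at Gm32287 lay 7 bp from the summit (3.40, 2.35 to 4.79), that at Lexis1 40 bp (3.10, 2.12 to 4.38) and that at Gm52922 70 bp (3.90, 2.79 to 5.32). The peak at Gm19705 had a fold enrichment of 2.96 (1.86 to 4.49). Lexis1 is a lncRNA beside Abca1, the cholesterol exporter.

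The 13 members met 15 windows, because 2 peaks each covered a pair of overlapping windows. Over whole windows and both strands, GTCTG occurred in 8 of the 15, beside 49.6% of all 32851 promoter windows and 51.7% of the 11588 lncRNA windows, so the share under members was close to the background. The GC-rich SMAD site GGCGCC was in none of the 15, beside 11.9% of all windows and 5.49% of lncRNA windows. The ETS letters CAGGAA were in 9 of 15, against 30.6% of all and 33.5% of lncRNA windows, and the KLF letters GGGNGGGG in 8, against 33.2% and 21.9%. The overlapping windows under the peak nearest to Raet1d hold the same ETS and KLF letters, which were counted in each window. In the same order of backgrounds, the AP-1 letters TGANTCA were in 3 against 7.81% and 9.31%, and the E-box CANNTG in 11 against 72.3% and 78.4%. The SOX letters ACAAT were in 3 against 31.0% and 37.1%, the GATA letters AGATAA in 2 against 11.2% and 14.0%, and the FOX letters TGTTTAC in 1 against 3.65% and 4.83%. No window under a member held the SMAD palindrome GTCTAGAC (0.213% of all and 0.190% of lncRNA windows), the BMP response element that joins GGCGCC to GTCTG (0.0274% and 0.0431%) or CCACCAGG from the CTCF motif (2.13% and 1.99%). The SMAD box and the GC-rich site are both part of that element. These windows were a small and particular subset of the members, and a match is a description of letters, not of binding.

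Distal intergenic stimulated peaks numbered 724, and the 513 members were 70.9% of them (exact binomial interval 67.4 to 74.1%). Over all nuclear stimulated peaks, 75.0% were stimulated-only. The same share was 77.1% (75.2 to 78.9%) for peaks inside gene bodies, 75.5% (72.9 to 78.0%) for peaks up to 20 kb outside them, and 71.1% (66.5 to 75.3%) for peaks over 100 kb away. The interval for distal peaks lay below that for gene bodies and overlapped those of the other 2 placements. Asking for a stricter call changed the share: among distal peaks with −log10 q of at least 10, only 109 were stimulated-only, or 39.5%. Over all placements, the median −log10 q was 6.42 for stimulated-only and 16.3 for shared peaks. The share at the stricter call is not given here for other placements, so it is not read as a trait of distal peaks.

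Territory between 20 and 100 kb from genes made up 472.7 Mb, 17.5% of the chromosomes taken from 100 kb before their first to 100 kb after their last gene. It carried 109 stimulated-only peaks per 100 Mb, beside 120 over all territory. The zone up to 20 kb from genes carried 214, gene bodies 151, and the deserts over 100 kb away 39.1. Shared peaks followed the same order between the flanks and the deserts, with 69.2, 44.9, 44.6 and 15.9 per 100 Mb in flank, gene body, distal and desert territory. Members therefore lay in territory of intermediate density. By distance, 137 lay 20 to 30 kb from a gene, 93 at 30 to 40 kb, 61 at 40 to 50 kb, and 27 at 90 to 100 kb. Territory shrinks with distance as well, from 104 to 35.6 Mb per bin, so that the density per 100 Mb ran from 132 (exact Poisson interval 111 to 156) in the nearest bin to 75.8 (50 to 110) in the farthest. Between 30 and 80 kb it lay between 93.5 and 115 with no steady trend. The median fold enrichment of the bins was 4.0 to 4.81, with no order by distance.

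**Figure D1:**
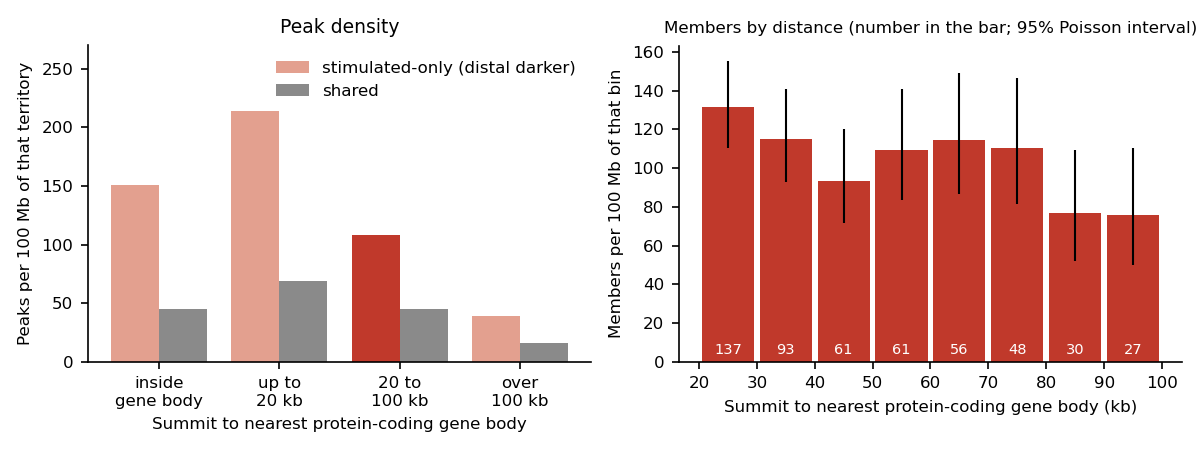
Left, SMAD4 peaks of the stimulated list per 100 Mb of each territory, stimulated-only (red tones, distal darkest) and shared (grey). Right, members per 100 Mb in 10 kb bins of distance from the summit to the nearest protein-coding gene body, with exact 95% Poisson intervals and the number of members written in each bar; the density is 132 in the first bin and 75.8 in the last.

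The median member lay 44.7 kb from its nearest gene body (quartiles 28.9 and 66.9), in a gene-free interval of 197 kb, with the farther flanking gene 137 kb away. Just inside the 20 kb limit were peaks 20.4 kb from Dnajb12 and from Ptgs1, the cyclooxygenase 1 gene, with fold enrichments of 3.88 and 5.12. Just outside it were peaks 19.98 kb from Slc16a11 and 19.96 kb from Ctnnb1, the gene of beta-catenin, with 4.89 and 5.23. At the far limit, peaks 98.9 kb from Ppp1r3b and from Gm38457 (3.10 and 4.25) were members, and those 100.03 kb from Msrb3 and 100.2 kb from Mpdz (8.76 and 2.55) were not.

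Where the strand of the nearest gene was known, 230 of 405 members (56.8%, 51.8 to 61.7%) were on its 5′ side. Shared distal peaks were on the 5′ side in 74 of 164 cases (45.1%, 37.4 to 53.1%), an interval that overlaps the members' at its upper end. The share was 67.9% (64.3 to 71.4%) for stimulated-only flank peaks and 47.9% (41.4 to 54.5%) for stimulated-only desert peaks, so the members' share lay between those of the closer and the more distant stimulated-only peaks. Shared peaks did not follow that order, with 64.3% (57.4 to 70.8%) in flanks and 64.9% (54.4 to 74.5%) in deserts. The side was not used in choosing the members.

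The word intergenic holds for protein-coding genes only. A non-coding gene body contained the summit of 113 members (22.0%, 18.5 to 25.9%), in 108 cases a lncRNA. Shared distal peaks lay in non-coding genes in 32.2% of cases (26.0 to 39.0%), desert peaks in 24.1% and flank peaks in 17.6%. When genes of every type were used for the distances, 294 stimulated-only peaks met the limits. The lncRNA Junos, which starts beside the AP-1 gene Jun, spans chr4:95052317-95169036 and contained 3 members.

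Members were low and narrow peaks beside the shared ones. The rule itself favours this contrast, since wide or strong peaks more easily overlap a called unstimulated peak. The members' fold enrichment ran from 1.55 to 10.6 with a median of 4.31 (quartiles 3.5 and 5.06), beside 4.56 for all stimulated peaks and 5.83 for shared distal peaks. A fold enrichment of at least 5 was reached by 149 members (29.0%, 25.1 to 33.2%), beside 39.6% of all stimulated peaks, 64.0% (57.1 to 70.5%) of shared distal peaks, and 30.4%, 30.8% and 34.2% of stimulated-only peaks in gene bodies, flanks and deserts. Over the genome-wide in place of the local background, 98.6% of the members reached 5, so the share depends on the background taken. On that background the lower quartile of all stimulated peaks was 7.20. Most of the list thus reached 5 as well, and the 98.6% is no trait of the members. Over the local background, the medians of those other stimulated-only sets were 4.25, 4.33 and 4.44 in the same order. Of the 100 highest peaks of the list 5 were members, and of the 500 highest 30, beside 513 of all 4324.

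The median pileup, which counts extended tags at the summit, was 26 (12 to 114), or 0.633 per 1000000 IP tags, against 1.05 for shared distal peaks. Local background was 0.122 per 1000000 tags for members and 0.171 for shared distal peaks. Tags were extended to 100 bp, and members had a median width of 190 bp (100 to 735), beside 336 bp for shared distal peaks. Widths below the 140 bp of 1 sequenced tag were found in 134 members (26.1%, 22.4 to 30.2%) and in 5 shared distal peaks (2.37%). Other stimulated-only peaks were like the members. In gene bodies, flanks and deserts their median pileups were 26, 25 and 25, and their median widths 178, 185 and 170 bp. Widths below 140 bp made up 28.2%, 26.8% and 32.9% of them, in the same order. In 32 members (6.24%) the background in the ratio was the genome-wide one, the lowest the caller allows. The members' median −log10 q was 6.38, with 46 of them below 3 and 109 at 10 or more.

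**Figure D2:**
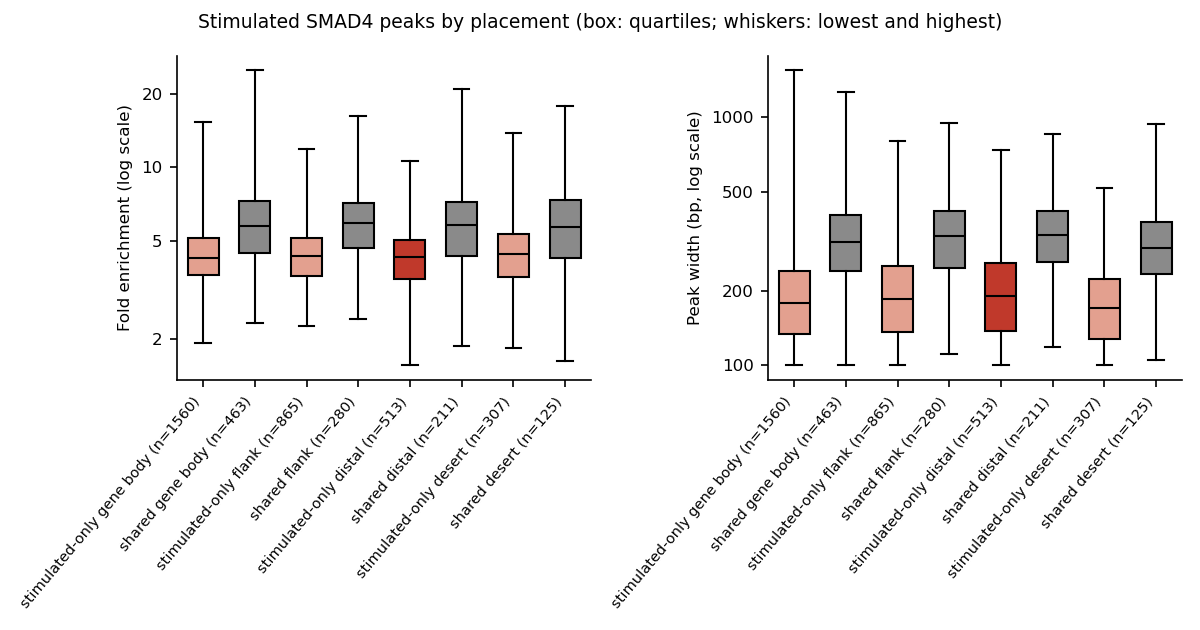
Fold enrichment (left, log scale) and peak width in bp (right, log scale) of stimulated peaks by placement and by overlap with the unstimulated list; boxes show quartiles, lines medians and whiskers the lowest and highest peak. The members (dark red) have medians of 4.31 and 190 bp, and shared distal peaks (grey) of 5.83 and 336 bp.

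Absence from a peak list is not absence of binding, so the pileup of each member was set against what the unstimulated list could have called. At the member's own background, scaled per tag, the lowest unstimulated pileup that would have reached the weakest p called there had a median of 22 tags (14 to 144). The unstimulated IP was the deeper set, with 52971023 tags against 41044888. All 513 members lay at or above that limit, as did all 3245 stimulated-only peaks of the list (100%). Having been called in the shallower set, they reach the limit of the deeper one nearly by construction, so this count says nothing about the members. The ratio of stimulated pileup to limit was 1.47 at the median (quartiles 1.29 and 1.71, range 1.02 to 3.52), with 232 members at 1.5 or more and 58 at 2 or more. Counts at these cutoffs are not given here for other stimulated-only peaks, so they are not read as a trait of the members. Peaks called in both lists also had a higher pileup per 1000000 tags after stimulation, by a median ratio of 1.47 (quartiles 1.29 and 1.68), while their background ratio was 1.00. Had members been weaker by that same ratio in the unstimulated cells, 251 would still have reached the limit and the others would not. The same held for 1617 of the 3245 stimulated-only peaks. The shared ratio comes from peaks called in both lists and nearly equals the members' median ratio to the limit. A split near the middle follows from these medians, so the 251 do not show how far binding at members changed. Of 1079 shared pairs, 986 had an unstimulated pileup at or above the limit computed from their stimulated background. Their unstimulated peaks were called at a background equal at the median, so most pass by construction and the limit is not tested by them. Unstimulated coverage under members was not analysed here.

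**Figure D3:**
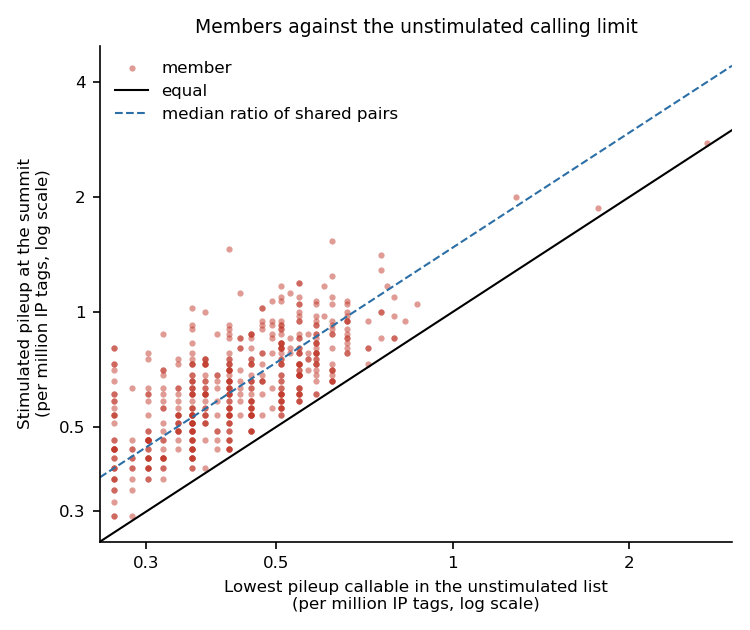
Stimulated pileup at the summit of each of the 513 members against the lowest pileup that could have been called in the unstimulated list at equal background, both per 1000000 IP tags on log scales. All points lie on or above the line of equality (black), and 251 lie on or above the dashed line at 1.47 times the limit, the median ratio of shared peaks.

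The nearest unstimulated peak was 363 kb away at the median (quartiles 60.8 and 1036 kb). It was over 100 kb away for 347 members and over 1000 kb for 137, but within 10 kb for 53, within 5 kb for 36 and within 1 kb for 12. The unstimulated list held only 1130 nuclear peaks, and the rule left out any overlap with them. These distances are not given here for other stimulated-only peaks, so they are not read as a trait of the members. The closest were members 258 bp from an unstimulated peak near Tm4sf1, a tetraspanin-like surface protein of endothelium, 269 bp near Snai1, the repressor of E-cadherin, and 347 bp near Top1, DNA topoisomerase I. These 3 had fold enrichments of 3.85, 3.47 and 4.33. Among distal peaks just on the other side of the rule, one near Nectin3 overlapped an unstimulated peak by 39 bp and one near Foxo1 by 64 bp. At the far end, the member 26.5 kb from Nid1, a basement membrane protein, had no unstimulated peak within 15964 kb.

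Stimulated peaks themselves were often neighbours. With peaks joined when 12500 bp or less apart, 164 members (32.0%, 27.9 to 36.2%) had another stimulated peak in their chain. The share was 25% (22.9 to 27.2%) for stimulated-only peaks in gene bodies and 42.2% (35.4 to 49.2%) for shared distal peaks. For stimulated-only peaks in flanks and deserts it was 29.6% and 30.3%, both inside the members' interval, so chaining was not particular to the members. A shared peak was in the chain of 63 members (12.3%, 9.57 to 15.4%). This share was 8.27% (6.95 to 9.75%), 11.8% and 13.7% for stimulated-only peaks in gene bodies, flanks and deserts. It was 24.2% (18.6 to 30.5%) for shared distal peaks. The remaining chained members had stimulated-only neighbours alone, and 349 members stood alone. The median fold enrichment was 4.42 for members that stood alone, 4.11 for those with stimulated-only neighbours and 3.86 for those with a shared peak. The shares at 5 or more were 32.1% (27.2 to 37.3%), 22.8% (15.0 to 32.2%) and 22.2% (12.7 to 34.5%), whose intervals overlap. There were 52 chains with 2 or more members, holding 112 of them.

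The nearest genes of the members were 411 of the 21887 protein-coding genes (1.88%), of which 334 had 1 member, 58 had 2 and 19 had 3 or more. Any stimulated peak within 100 kb was nearest to 12.2% of genes. Myo10, an unconventional myosin that carries cargo to the tips of filopodia, had the most, with 5 members spread over 40.3 to 96.9 kb on its 5′ side. Their fold enrichments were 3.0, 3.25, 3.61, 2.40 and 5.53 from the farthest to the closest, and no other stimulated peak lay within 100 kb of the gene. The nearest unstimulated peak was 10422 kb from the closest of them.

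Gadd45a, a growth arrest and DNA damage gene, had 4 members packed into its 5′ side at 65.3, 65.7, 68.3 and 69.3 kb, with fold enrichments of 3.33, 5.06, 4.86 and 4.13. They formed a chain of 13.6 kb with a shared peak of 8.09, the longest run of members in a chain. Kdr, the main VEGF receptor of endothelium, had 3 members on its 3′ side at 97.5, 97.0 and 72.7 kb (2.62, 4.73 and 4.81) and 1 on its 5′ side at 35.0 kb (3.98). The first 2 were 0.395 kb apart, and the second had the pileup of 51 tags, the highest of the 4. Kdr also had 2 shared peaks, one inside the gene and one 10.0 kb from it, so members made up most of the 7 stimulated peaks within 100 kb.

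S1pr1, the endothelial sphingosine-1-phosphate receptor, had members 88.7, 63.1 and 60.6 kb to one side (6.0, 2.90 and 3.5) and 54.0 kb to the other (2.55). Its single shared peak lay 1.23 kb from the gene with a fold enrichment of 5.70. The gene-free interval between S1pr1 and Dph5, a diphthamide synthesis enzyme, held 3 more members that were nearest to Dph5, at 72.4, 72.0 and 53.1 kb (3.09, 3.0 and 4.47). The gene 1700001O22Rik had 4 members on its 3′ side at 22.4 to 87.5 kb, of which the farthest reached 6.49 and stood 3.95 kb from an unstimulated peak.

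**Figure D4:**
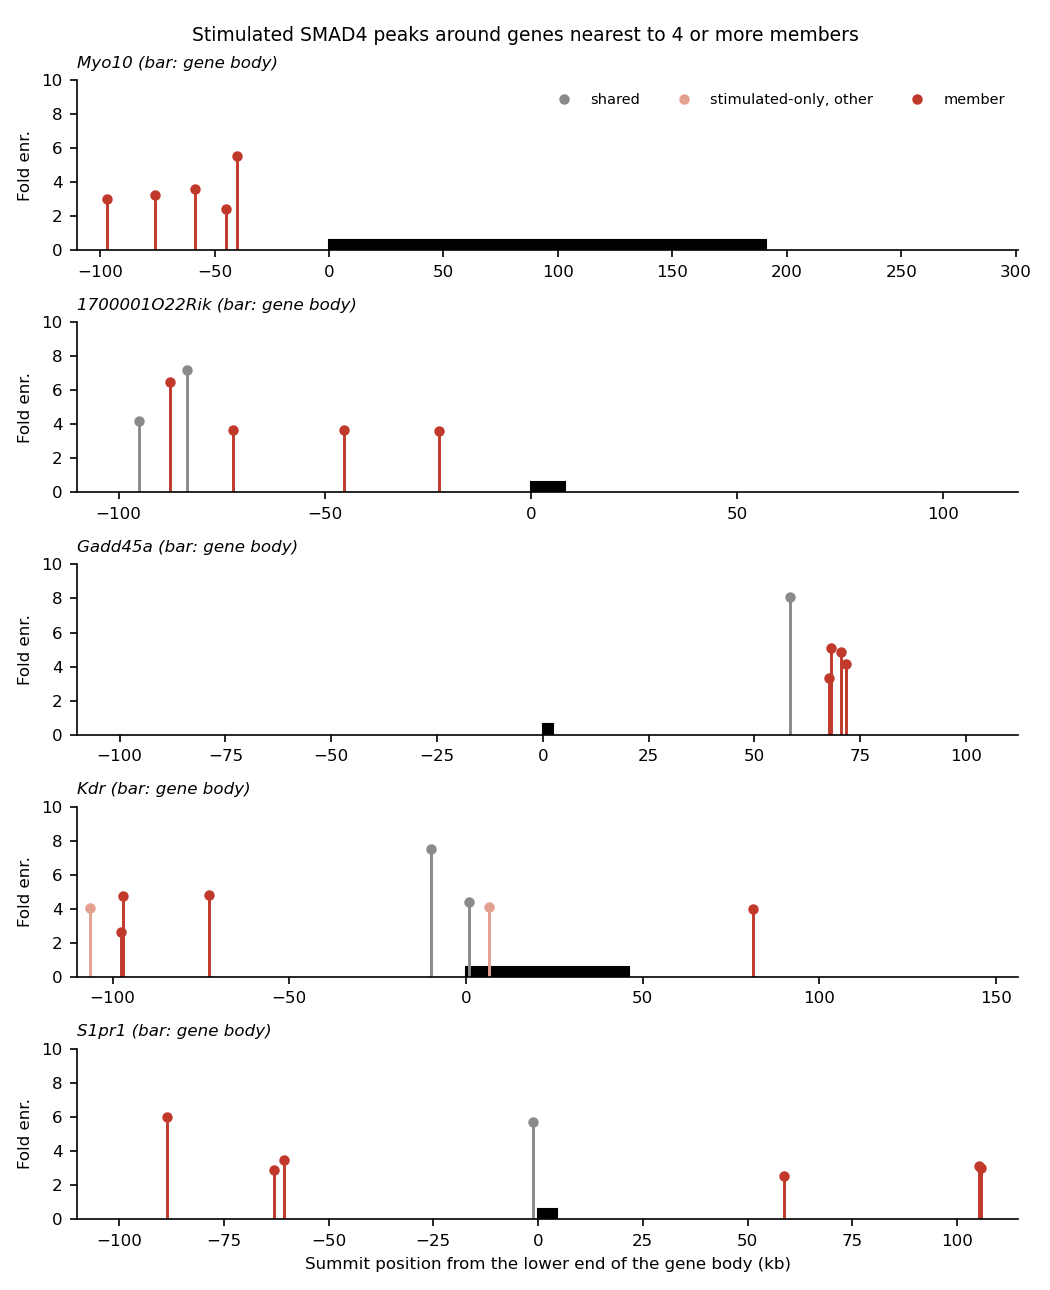
Stimulated SMAD4 peaks around the 5 genes nearest to 4 or more members, by summit position in kb from the lower end of the gene body (black bar) and by fold enrichment; members are dark red, other stimulated-only peaks light red and shared peaks grey. All 5 peaks at Myo10 are members on one side of the gene, and the 4 members at Gadd45a lie beside a shared peak; the 2 rightmost members in the S1pr1 panel are nearest to Dph5.

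Among the genes with 3 members, Jun had 3.30, 4.18 and 3.33 at 30.6, 53.9 and 65.2 kb on its 5′ side, all inside Junos, and the closest was 0.990 kb from an unstimulated peak. Cdh6, a cadherin, had 4.0, 4.25 and 4.58 within 2.55 kb, with no unstimulated peak within 1018 kb. Noct, a rhythmically expressed phosphatase, had 5.45, 4.92 and 4.11 within 3.26 kb. Egln3, a prolyl hydroxylase of hypoxia-inducible factor, had 3.33, 2.78 and 6.17. Irs2, the insulin receptor substrate, had 4.72, 5.56 and 3.5, the middle one at the start of 3930402G23Rik shown above. Kcnh2, a cardiac potassium channel gene, had 3.95, 4.75 and 3.40 at 53.0, 36.3 and 32.7 kb, and these lay 98.3, 81.5 and 77.9 kb from Nos3, the endothelial nitric oxide synthase. These genes belong to unlike pathways, and their members ranged from 2.78 to 6.17.

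Tfap2c, the transcription factor AP-2 gamma, had 6.89, 4.69 and 3.5 at 77.7 to 87.0 kb. Cog6, of a Golgi tethering complex, had 4.67, 6.82 and 4.68, and Rapgef5, an exchange factor for Rap GTPases, had 5.49, 4.89 and 2.64. The remaining genes with 3 members were Fbrsl1 (3.22 to 5.82), Hs1bp3 (3.08 to 5.94), Cdkn2aipnl (2.83 to 3.29) and Ttc7b (2.73 to 3.90). None of the peaks at genes with 3 or more members was among the 20 highest.

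The highest member was a peak of 132 bp 69.2 kb from Itga11, a collagen receptor integrin subunit, at chr9:62608603-62608734. It had a pileup of 33 tags and a fold enrichment of 10.6 (7.42 to 14.8), rank 57 of the stimulated list. The second lay 72.7 kb from Caprin1, an RNA-binding protein of stress granules, at chr2:103870252-103870515, with the same pileup and 10.3 (7.21 to 14.4), and its other flanking gene was Lmo2, a haematopoietic and endothelial LIM-only cofactor, 87.6 kb away. The third, near the zinc finger gene Zfp664 at chr5:124922966-124923458, differed in kind: its pileup of 60 tags gave 9.84 (7.55 to 12.6), it was 493 bp wide, and it had the highest −log10 q of the members, 36.5. The intervals of these 3 overlap, so their order is not resolved.

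Peaks near Pcdh1, a protocadherin, and Tpd52 followed, both with 30 tags and 9.70 (6.65 to 13.7), and then St6galnac3, a sialyltransferase, with 29 tags and 9.39. Etv1, an ETS transcription factor, had 36 tags and 8.81, Raet1d, a ligand of the NKG2D receptor, 27 tags and 8.76, and Sfrp2, a secreted WNT modulator, 42 tags and 8.60. AA414768 on the X chromosome had 32 tags and 8.25. Pofut2, a protein O-fucosyltransferase, and Smad7, the inhibitory SMAD, each had 25 tags and 8.14 (5.38 to 11.9). The Pofut2 peak also lay 68.6 kb from Col18a1, the collagen that yields endostatin, and the Smad7 peak was the widest member, 735 bp. In 9 of the 20 highest members the background was the genome-wide one, and their pileups were 23 to 33 tags.

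The remaining 8 of the 20 were near Ccn1 (31 tags, 8.00), a matricellular protein, Foxl1 (38 tags, 7.96), a forkhead factor, Tox3 (24 tags, 7.82), Sox17 (41 tags, 7.78), the SoxF factor of arterial endothelium, B3gnt2 (37 tags, 7.76), Mc3r (26 tags, 7.71), a melanocortin receptor, Ate1 (23 tags, 7.51), an arginyl-transferase, and Mreg (24 tags, 7.44). The lowest of them, near Mreg, had an interval of 4.87 to 10.9 that includes the value of the highest member. Mreg also stood 1.45 kb from an unstimulated peak, whereas the Ccn1 peak was 3512 kb from one. At the other end were 2 peaks near Ly6c2, of the Ly6 surface antigen cluster, at the highest backgrounds of all members. One had 77 tags and a fold enrichment of 1.77, rank 4319 of 4324, and the other had 114 tags, the highest pileup of any member, and 1.55 over a background of 73.0, the lowest rank of the list.

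Lists of genes from BMP and endothelial biology were then searched for members. These lists were chosen with earlier results of these data known, so their shares are a description and no evidence of enrichment. Of 20 BMP target genes, 5 were the nearest gene of a member (25%, beside 1.88% of all genes), and 12 of the 20 were nearest to any stimulated peak. Smad6, the inhibitory SMAD that is expressed in endothelium, had a member 38.3 kb on its 5′ side with 26 tags and 6.92 (4.61 to 10.0). Another 2 members followed in the interval towards Lctl, 62.8 and 70.3 kb from Smad6, with 4.80 and 4.60. These 3 stood 9.51, 4.19 and 1.89 kb from an unstimulated peak, so all were in a region with SMAD4 peaks in both lists. The Smad7 member was 24.5 kb from the gene and 23.2 kb from an unstimulated peak.

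The other BMP targets had weaker members: Bmper, a secreted BMP modulator, 3.33 at 82.0 kb, Hes1, the bHLH repressor shared with Notch signalling, 3.22 at 40.3 kb, and Msx1, a homeobox factor, 2.82 at 51.9 kb. The list's 5 members had a median of 3.33, beside 4.31 over all members. Of 19 TGF-beta targets 3 had members, which were Ccn1 (8.00, 41.1 kb), Snai1 (3.47, 27.3 kb) and Tgfbi, a matrix protein, with 3.17 and 4.0 on either side of the gene. Of 26 receptor, ligand and SMAD genes 2 had members, the receptor-activated Smad2 (4.60, 27.7 kb) and the ligand Tgfb2 (2.55, 54.5 kb). Bmp6, a BMP ligand of endothelium, was nearest to none but had 2 members 50 and 79.8 kb away, with 5.94 and 7.20.

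Of 25 endothelial identity genes 2 were nearest to a member, Kdr and Sox17, although 19 were nearest to some stimulated peak. Sox17 had members 30.3 kb (16 tags, 5.0, 2.98 to 7.94) and 74.3 kb (41 tags, 7.78, 5.63 to 10.5) from the gene, on the same side and 43.9 kb apart, with no unstimulated peak within 188.7 kb. Kdr and Sox17 were also the only genes with members in the lists of 17 VEGF pathway and of 16 arterial and venous genes. Of 20 Notch pathway genes Hes1 alone had one. Of 20 flow response and PI3K genes 3 had members: Foxo1, the forkhead factor restrained by AKT, with 6.33 at 41.4 kb and 3.44 at 65.3 kb, Klf2 with 3.55 at 23.3 kb, and Klf4 with 4.69 at 49.0 kb, the last 2 being flow-induced factors. Foxo1 was also the only one of 10 angiopoietin and TIE genes with a member.

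Of 12 ERK feedback genes 2 had members. Dusp6, the ERK phosphatase, had a pair 0.165 kb apart at 20.6 and 21.1 kb on its 5′ side, each with 30 tags, with 6.20 (4.25 to 8.77) and 6.89 (4.72 to 9.74). Spred1, a RAS-pathway inhibitor, had 3.80 at 72.7 kb. Dusp1, Dusp5 and Dusp10 each had a member within 100 kb that was nearer to another gene, with 3.92, 2.92 and 3.43. Of 28 matrix, integrin and guidance genes 3 had members, Efna5, an ephrin (4.92), Nid1 (4.35) and Itgav, the alpha-v integrin (3.86, 53 tags). None of 20 cell cycle genes was nearest to a member.

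Genes that mark other cells were searched in the same way. None of 12 fibroblast, 14 leukocyte and 15 pancreatic islet and acinar genes was nearest to a member, but with 1.88% of all genes nearest to one, lists this short would be likely to hold none, and the count is no result about these markers. Among 13 mural cell genes Kcnj8, a potassium channel subunit of pericytes, had 5.81 at 26.2 kb, and among 14 neuron genes Nefl, the light neurofilament, had 6.05 at 33.0 kb with no unstimulated peak within 861.6 kb. Of 15 housekeeping genes Actb had a member of 4.46 at 21.3 kb. Single members thus occurred near genes of other cell types too. The lists were not tested against each other or against all genes, and the part of the gene-free interval beside a gene, 197 kb at the median for members, in these counts was not tested.

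**Figure D5:**
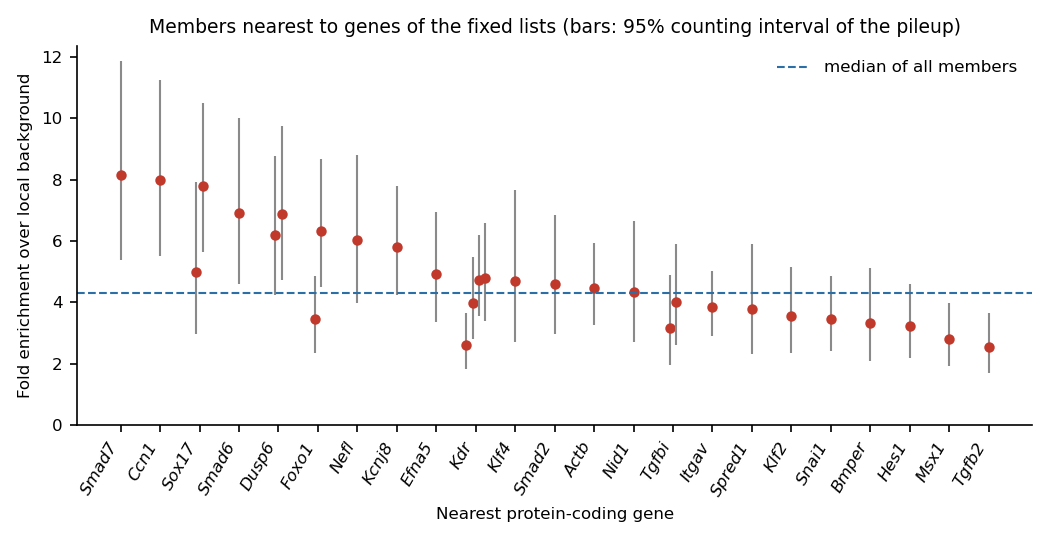
Fold enrichment of every member that is nearest to a gene of the lists, with the exact 95% Poisson interval of its pileup as a grey bar; the dashed line is the median of all 513 members, 4.31. Smad7, Ccn1, Sox17, Smad6, Dusp6 and Foxo1 each have a member whose interval lies above the dashed line, and the other intervals reach it or lie below it.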

How the data were processed

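The values rest on 2 narrow peak lists of mm10, 1 for each condition. Per the file headers, the authors ran MACS2 2.1.0.20140616 on merged IP against merged input libraries. They kept 1 tag per position, extended tags to 100 bp, used a q cutoff of 0.01 and took local background over 1 and 10 kb. The tags measured 140 bp in the stimulated and 146 bp in the unstimulated list. The deposited pileup is an unscaled coverage signal, deposited p- and q-values are on the −log10 scale, and fold enrichment as deposited is a ratio of pileup to background. The sources used here name no aligner.

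Overlap was at least 1 bp (bedtools 2.31.1), and distances ran from the summit to 21887 protein-coding gene bodies of a RefSeq table of GRCm38.p6. Dividing the pileup plus 1 by fold enrichment and then subtracting 1 gave back the local background. Poisson p-values computed on that background lay within 1% of all deposited ones (−log10 scale). Code was tested on simulated peaks. Strand was taken from RefSeq promoter windows. Intervals are exact (Clopper-Pearson for shares, Poisson for pileups) at 95%, for counting error only; no test between conditions was possible in pooled lists. Text names the 20 highest members, members nearest to listed genes, genes with 3 or more members, and those at the limits of the rule. Members and gene lists were chosen with earlier results of these data known. Peaks on mitochondrial DNA were left out.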

Additional observations from a re-analysis of the deposited data

How the results depend on the processing

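The number of members stayed within 1.5 times 513 with an unstimulated peak counted as shared at 500 bp (506) or 5 kb (477), with distances from 10 kb (725) or from the peak edge (514), without predicted genes (524) and without tall narrow peaks (509). With −log10 q of at least 5 there were 337 members, 62.4% of distal peaks, with medians of 4.78 and 208 bp; at 10, these were 109, 39.5%, 5.87 and 260 bp. Distances from 50 kb left 222 members, and genes of every type 294 with a median width of 178 bp. The stimulated-only share was 65.9% when a peak within 5 kb counted as shared. Added after seeing the data, leaving out peaks narrower than 1 tag gave 64.8% and 217 bp, division by the shared ratio left 251 members at the unstimulated limit, and 98.6% reached a fold of 5 over the genome-wide background in place of 29.0%. The 98.6% is no trait of the members, since the lower quartile of all stimulated peaks was 7.20 on that background. Chained members were 21.4% within 5 kb and 40.9% within 25 kb. No paired analysis was possible because the libraries of each condition were merged before peaks were called, and leaving out a replicate was not possible for the same reason. The planned motif searches around summits were not run, since no genome sequence was used here. Weak peaks limit precision: the median member rests on 26 tags.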
